A study of Mus musculus with 12 samples.

Results

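Transcripts of 9 leukocyte integrin genes were followed in alveolar macrophages of 4 mouse genotypes: the α chain genes Itgax, Itgam, Itgad, Itgal and Itga4 and the β chain genes Itgb2, Itgb1, Itgb7 and Itgb5. A probe belonged to a gene when its accession named that gene, and the brightest probe stood for the gene. All 9 genes had a probe that passed the background filter, out of 13810 named genes and 23124 genes or transcripts tested in all. The probe was well above background on all 12 arrays for 8 of the genes and on 7 arrays for Itgad, which passed through the genotypes where it is high.

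The cells came from bronchoalveolar lavage of female C57BL/6 mice, 8 to 9 weeks old, and were sorted by flow cytometry. The 4 genotypes were wild type (WT), Bach1 knockout (Bach1 KO), Bach2 knockout (Bach2 KO) and the double knockout of both genes (DKO), with 3 independent mice each and 1 single-colour Agilent array per mouse. Bach1 and Bach2 are related transcriptional repressors. The labels do not say how the knockouts were made, in which cells the genes were lost, or which surface markers the sort used. Each value below is a log2 signal relative to the 75th percentile of its own array, group values are means ± SD (n = 3 mice), and differences are means ± SE. A difference passed the test at a Benjamini-Hochberg adjusted p under 0.05, from limma's moderated test over all genes or transcripts. Probes differ in brightness, so a value can be compared between mice for 1 gene but not between genes.

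Integrins are cell surface receptors made of 1 α and 1 β chain, which carry a cell along vessel walls, matrix and other cells and signal from these contacts. The α chains encoded by Itgal (CD11a), Itgam (CD11b), Itgax (CD11c) and Itgad (CD11d) all pair with the β chain encoded by Itgb2 (CD18) and bind ligands such as ICAM proteins and complement fragments. The Itga4 chain pairs with the Itgb1 or the Itgb7 chain and binds VCAM-1, fibronectin or MAdCAM-1, and the Itgb5 chain pairs with the αv chain to bind vitronectin. Mouse alveolar macrophages are commonly recognised by high CD11c and low CD11b on their surface, whereas macrophages recruited from blood monocytes carry CD11b.

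Of the genes for the CD18 partners, Itgam, Itgax and Itgad lie side by side on chromosome 7, with 0 protein-coding genes between them, and Itgal lies on the same chromosome with 35 protein-coding genes between it and Itgam. Itgb2 lies on chromosome 10, Itga4 on chromosome 2, Itgb1 on chromosome 8, Itgb7 on chromosome 15 and Itgb5 on chromosome 16. The RefSeq promoter table (GRCm38.p6) held 6 of the 9 genes and left Itgad, Itgal and Itgb2 unmatched. Promoter windows of the neighbours Itgax and Itgam are shown because these genes sit next to each other. Both are read 5′ to 3′ on the plus strand, from 250 to 31 bases before the annotated start. Capitals mark TGANTCA in the Itgax window, the core letters of sites shared by Bach and AP-1 factors, and GAGGAA in the Itgam window, the core letters of sites of ETS factors such as PU.1.
Itgax, chr7:128129300-128129519: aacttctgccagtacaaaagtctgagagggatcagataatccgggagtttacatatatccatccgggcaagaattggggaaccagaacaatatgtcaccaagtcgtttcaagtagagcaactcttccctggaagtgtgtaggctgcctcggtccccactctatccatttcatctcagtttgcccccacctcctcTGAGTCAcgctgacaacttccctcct
Itgam, chr7:128062390-128062609: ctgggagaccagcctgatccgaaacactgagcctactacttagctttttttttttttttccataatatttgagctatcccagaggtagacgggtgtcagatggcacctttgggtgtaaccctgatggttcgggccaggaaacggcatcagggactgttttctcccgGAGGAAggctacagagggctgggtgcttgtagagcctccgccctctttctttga

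Both strands of the full 300-base windows, from 250 bases before to 50 after the start, were searched, and the motifs do not overlap each other. TGANTCA was found in 1 of the 6 windows, that of Itgax, as TGAGTCA at positions -56 to -50 from the start. It occurs in 7.81% of 32851 promoter windows in the table. GAGGAA was found in 3 of the 6 windows, 3 times in that of Itgam (once at -84 to -79) and once each in those of Itgb1 and Itgb7, and it occurs in 28.3% of all windows. A match of letters is a description of the sequence and was not tested as a binding site.

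Each array had 59305 non-control spots, of which 45.2% to 72.4% were well above background and none was saturated. Slide 1 carried 8 arrays, those of WT, Bach1 KO and Bach2 KO replicates 1 and 2. Slide 2 carried Bach2 KO replicate 3 alone. Slide 3, with a scan day of its own, carried the 3 DKO arrays, so DKO cannot be told apart from its slide. On the third principal component (7.55% of the variance) WT replicate 3 (score 123) and Bach1 KO replicate 3 (score -76.0) stood apart at opposite ends. Bach1's probe read 3.93 ± 0.31 in WT, 2.50 ± 0.08 in Bach1 KO, 3.94 ± 0.16 in Bach2 KO and 2.48 ± 0.71 in DKO. In limma's test over all probes its difference in Bach1 KO against WT, -1.43 ± 0.32, did not pass (adjusted p = 0.306). That in DKO against Bach2 KO, -1.45 ± 0.32, did not pass either (adjusted p = 0.0565). In DKO against WT the Bach1 probe differed by -1.44 ± 0.32 and passed (adjusted p = 0.0108). No Bach2 probe settled the Bach2 labels, and genotypes are those of the labels. All 12 alveolar macrophage markers examined (Siglecf, Marco and Car4 among them) were well above background on every WT, Bach1 KO and Bach2 KO array, and 11 of them on every DKO array.

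**Figure D1:**
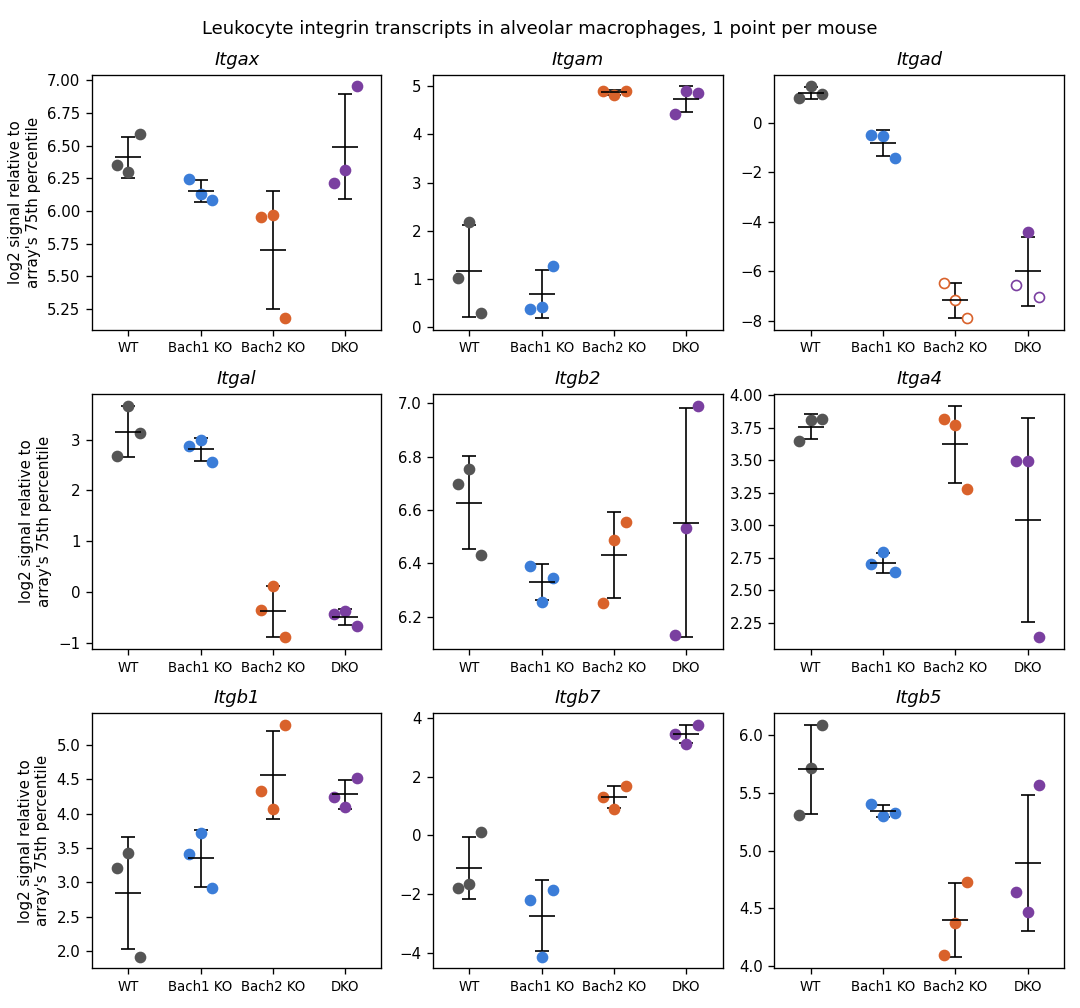
Log2 signal of the 9 integrin genes relative to the array's 75th percentile, 1 point per mouse, with the mean (horizontal line) and SD (bars) of each genotype; open points were not well above background, and each panel has its own vertical scale. Itgam and Itgb7 are higher and Itgad and Itgal lower in all Bach2 KO and DKO mice than in any WT or Bach1 KO mouse, while the whole range of the Itgb2 means is 0.30.

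Loss of Bach2 was read from Bach2 KO against WT. Itgam, Itgb7 and Itgb1 rose and Itgad, Itgal, Itgb5 and Itgax fell, while Itgb2 and Itga4 did not pass the test. The 7 genes that passed make 7 of 9, where 37.1% of all genes or transcripts tested passed (2872 higher and 5711 lower of 23124). With quantile normalization 4 members passed as higher, Itgb2 among them, and 2 as lower, and with no scaling 3 passed as higher and 2 as lower. The median difference over the 9 genes was -0.20, beside -0.30 over all genes tested. That all-gene median itself moved to -0.15 with quantile normalization, to -0.53 with scaling to the array median and to 0.39 with no scaling. In 7 of the 9 genes the 3 Bach2 KO values did not overlap the 3 WT values, as in 50.5% of all genes or transcripts tested. Within slide 1, with 3 WT and 2 Bach2 KO arrays, 4 genes passed: Itgam at 3.69 ± 0.53 (adjusted p = 0.00258), Itgal at -3.27 ± 0.34 (adjusted p = 0.000548), Itgb5 at -1.47 ± 0.25 (adjusted p = 0.00575) and Itgad (adjusted p = 2.82e-05), which was not well above background on either Bach2 KO array there. With slide as a random block 6 passed, without Itgax (adjusted p = 0.0502).

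Itgam encodes the α chain of Mac-1, also known as complement receptor 3, which takes up complement-coated particles. It read 1.02, 2.19 and 0.29 in the 3 WT mice and 0.37, 0.43 and 1.27 in the Bach1 KO mice. In Bach2 KO mice it read 4.90, 4.81 and 4.89, and in DKO mice 4.41, 4.90 and 4.86. On the brightest probe every mouse without Bach2 was above every mouse with it, and the Bach2 KO mice, at 4.87 ± 0.05, varied least. Itgam rose by 3.70 ± 0.41 in Bach2 KO against WT (adjusted p = 6.04e-05) and by 3.56 ± 0.41 in DKO against WT (11.8-fold, adjusted p = 6.38e-05). A second Itgam probe gave 3.66 ± 0.32 for Bach2 KO against WT (adjusted p = 1.10e-05). The third Itgam probe, well above background on all 12 arrays, gave 0.47 ± 0.32 for the same difference and did not pass (adjusted p = 0.272), so the probes of this gene disagree in size.

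Itgal encodes the α chain of LFA-1, which holds leukocytes to ICAM-1 on other cells. Its values were 2.68, 3.67 and 3.12 in WT and 2.87, 2.99 and 2.56 in Bach1 KO. They were -0.34, 0.12 and -0.89 in Bach2 KO and -0.44, -0.36 and -0.66 in DKO. The pattern is the reverse of that of Itgam, with all 6 mice that lacked Bach2 below all 6 that had it. Itgal fell by 3.53 ± 0.32 in Bach2 KO against WT (11.5-fold, adjusted p = 1.20e-05) and by 3.64 ± 0.32 in DKO against WT (12.5-fold, adjusted p = 6.35e-06). Its second probe gave -3.72 ± 0.28 and -3.62 ± 0.28 for these differences.

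Itgad encodes the CD11d chain, which in mice is found on macrophages of some tissues. WT mice read 1.01, 1.49 and 1.19, and Bach1 KO mice read -0.49, -0.51 and -1.41. In Bach2 KO mice the probe read -6.48, -7.17 and -7.90, and it was not well above background on any of these 3 arrays. In DKO mice it read -6.55, -4.40 and -7.04, with only the DKO replicate 2 array well above background. WT and Bach1 KO mice lay far above all others, and the Bach2 KO level is known only as an upper limit. Against the lowest signal called well above background on each Bach2 KO array, Itgad was at least 114-fold lower in Bach2 KO than in WT (measured means -7.18 and 1.23, adjusted p = 2.75e-06). The measured difference of DKO from WT was -7.23 ± 0.63 (adjusted p = 5.84e-06), with 1 of 3 DKO arrays well above background. Over the alternatives it lay between -8.03 and -5.02. The gene has 1 probe here.

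Itgax encodes the CD11c chain. Its values were 6.35, 6.30 and 6.59 in WT, 6.24, 6.13 and 6.08 in Bach1 KO, 5.96, 5.97 and 5.18 in Bach2 KO and 6.21, 6.31 and 6.95 in DKO. All Bach2 KO mice lay below all others, with replicate 3, the array alone on slide 2, the lowest. In the Bach2 KO mice Itgax fell by 0.71 ± 0.26 (1.64-fold, adjusted p = 0.0479), but the difference was 0.16 with quantile normalization (adjusted p = 0.548) and -0.02 with no scaling (adjusted p = 0.958). Without Bach2 KO replicate 3 it was -0.45 (adjusted p = 0.179) and without WT replicate 3 it was -0.62 (adjusted p = 0.141). The call was lost in 18 of 26 alternatives, beside the reversal with quantile normalization. In DKO against WT the difference was 0.08 ± 0.26 (95% interval -0.48 to 0.64, adjusted p = 0.834), it turned to -0.07 with scaling to the array median, and it passed with quantile normalization at 0.60 (adjusted p = 0.0414).

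Itgb2 encodes CD18, the β chain that the previous α chains share. It read 6.70, 6.76 and 6.43 in WT, 6.39, 6.26 and 6.35 in Bach1 KO, 6.25, 6.49 and 6.56 in Bach2 KO and 6.13, 6.53 and 6.99 in DKO. The WT, Bach2 KO and DKO values overlap, and the 4 means span 0.30, less than the SD of the DKO mice alone (0.43). For Bach2 KO against WT the difference was -0.20 ± 0.22 (95% interval -0.68 to 0.28, adjusted p = 0.506), but 0.70 with quantile normalization (adjusted p = 0.0192) and 0.49 with no scaling. For DKO against WT it was -0.08 ± 0.22 (95% interval -0.55 to 0.40), and 0.46 and 0.36 with those scalings.

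Among the partners of the Itga4 chain, Itgb7 varied most between genotypes. It encodes the β chain of LPAM-1, a receptor that lymphocytes use to enter the gut. WT mice read -1.79, -1.66 and 0.12, and Bach1 KO mice -2.20, -4.14 and -1.87. Bach2 KO mice read 1.32, 0.92 and 1.68, and DKO mice 3.47, 3.14 and 3.78. None of the 4 genotypes overlapped another, in the order DKO, Bach2 KO, WT and Bach1 KO. Itgb7 rose by 2.42 ± 0.61 in Bach2 KO against WT (5.33-fold, adjusted p = 0.0100, and 0.0793 on slide 1 alone) and by 4.57 ± 0.61 in DKO against WT (23.8-fold, adjusted p = 0.000192). The step from Bach2 KO to DKO, 2.15 ± 0.61 (4.45-fold, adjusted p = 0.0781), did not pass, although it passed in 7 of 26 alternatives. One of these is the fit with the replicate number as a block over all 4 genotypes (adjusted p = 0.0313). Same-numbered Bach2 KO and DKO arrays deviated together, but this was read from these same data and is not stated in the labels. It therefore gives the blocked fit no separate support. The step from WT to Bach1 KO was -1.63 ± 0.61 (adjusted p = 0.749) and did not pass.

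Itgb1 encodes the β chain of many matrix receptors, the fibronectin receptors included. It read 3.20, 3.43 and 1.92 in WT, 3.41, 3.72 and 2.91 in Bach1 KO, 4.33, 4.06 and 5.29 in Bach2 KO and 4.24, 4.10 and 4.51 in DKO. On the brightest probe every mouse without Bach2 was above every mouse with it, and WT replicate 3 and Bach2 KO replicate 3 were the extremes. Itgb1 rose by 1.71 ± 0.42 in Bach2 KO against WT (3.28-fold, adjusted p = 0.00822), with adjusted p = 0.0691 on slide 1 alone and 0.0532 for the mean of its probes. In DKO against WT it rose by 1.44 ± 0.42 (2.70-fold, adjusted p = 0.0248). This second call was lost without WT replicate 3 (0.97, adjusted p = 0.0883), DKO replicate 1 (1.46, adjusted p = 0.0634), DKO replicate 2 (1.53, adjusted p = 0.0504) or DKO replicate 3 (1.32, adjusted p = 0.0744). A second Itgb1 probe gave 2.81 ± 1.34 for Bach2 KO against WT and did not pass (adjusted p = 0.124). On that probe WT replicate 1 (0.78) read above Bach2 KO replicates 1 (0.07) and 2 (-0.67). Its WT replicate 3 signal (-6.47) was not well above background.

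Itga4 read 3.65, 3.81 and 3.82 in WT and 2.70, 2.79 and 2.64 in Bach1 KO. In Bach2 KO it read 3.82, 3.77 and 3.28, and in DKO 3.49, 3.49 and 2.14. WT and Bach2 KO mice overlap and DKO replicate 3 is the lowest of the 12. The difference of Bach2 KO from WT was -0.14 ± 0.33 (95% interval -0.86 to 0.59, adjusted p = 0.770), and it was 0.30 with quantile normalization and 0.55 with no scaling. That of DKO from WT was -0.72 ± 0.33 (adjusted p = 0.126), and it was -0.27 without DKO replicate 3, -0.43 with quantile normalization and -0.28 with no scaling.

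Itgb5, whose chain pairs with αv, read 5.31, 5.72 and 6.08 in WT, 5.41, 5.30 and 5.32 in Bach1 KO, 4.10, 4.38 and 4.73 in Bach2 KO and 4.64, 4.47 and 5.57 in DKO. The Bach2 KO mice lay below all WT and Bach1 KO mice, and DKO replicate 3 overlapped WT. Itgb5 fell by 1.30 ± 0.30 in Bach2 KO against WT (2.47-fold, adjusted p = 0.00646), a call lost with quantile normalization (-0.64, adjusted p = 0.102) and no scaling (-0.61, adjusted p = 0.189). In DKO against WT the difference was -0.81 ± 0.30 (adjusted p = 0.0661), and it passed without DKO replicate 3 (-1.15, adjusted p = 0.0102).

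In DKO against WT, Itgam, Itgb7 and Itgb1 rose and Itgad and Itgal fell, 5 of 9, where 27.2% of all genes or transcripts passed (2444 higher and 3840 lower). The median over the 9 genes was -0.08, beside -0.28 over all. With quantile normalization Itgax passed as higher too. The 3 DKO values did not overlap the 3 WT values for 6 of the 9 genes, and for 44.9% of all genes or transcripts.

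**Figure D2:**
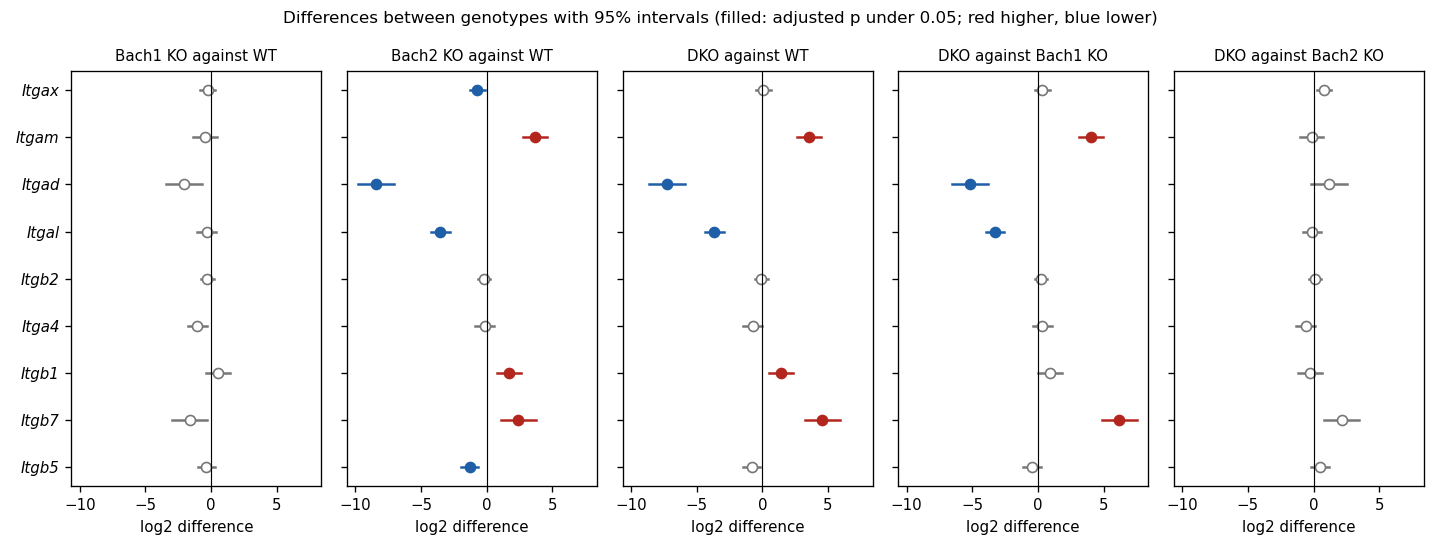
Log2 difference of each of the 9 integrin genes in 5 comparisons, with 95% intervals as bars; filled points passed an adjusted p of 0.05 (red higher, blue lower). Bach2 KO against WT and DKO against WT hold 7 and 5 filled points, and Bach1 KO against WT and DKO against Bach2 KO hold 0. Itgad points that involve Bach2 KO use signals not well above background, and for those that involve DKO 1 of 3 DKO arrays was well above background.

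Loss of Bach1 was read from Bach1 KO against WT and, without Bach2, from DKO against Bach2 KO. In limma's test 0 of 9 integrin genes passed in Bach1 KO against WT, where 0.0605% of all genes or transcripts passed (14 of 23124), and 3 of the 9 had an unadjusted p under 0.05, as had 5.31% of all. These were Itgad, at -2.03 ± 0.63 (adjusted p = 0.507), Itga4, at -1.05 ± 0.33 (adjusted p = 0.542), and Itgb7. In all 3 of these genes, and in Itgax and Itgb2, the Bach1 KO mice lay below all WT mice, which makes 5 of 9 without overlap, beside 6.79% of all genes or transcripts. The widest 95% interval of the 9 was that of Itgad, -3.40 to -0.67, and the narrowest was that of Itgb2, -0.78 to 0.18. The median over the 9 genes was -0.36, beside -0.07 over all genes tested.

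In DKO against Bach2 KO, 0 of 9 passed in limma's test, where 3.56% of all genes or transcripts passed (335 higher and 489 lower). Itgax and Itgb7, 2 of the 9, reached an unadjusted p under 0.05, as did 21.3% of all. The DKO mice lay above the Bach2 KO mice without overlap in the same pair of genes, and 35.2% of all genes or transcripts did not overlap in either direction. Itgax differed by 0.79 ± 0.26 (95% interval 0.23 to 1.35, adjusted p = 0.109). Itgam differed by -0.15 ± 0.41 (95% interval -1.05 to 0.76) and Itgal by -0.12 ± 0.32 (-0.81 to 0.58), and neither passed. Itgad did not pass either, and no size is given because 1 of the 6 arrays was well above background. The median over the 9 genes was 0.12, beside 0.03 over all.

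Loss of Bach2 in mice that also lacked Bach1 was read from DKO against Bach1 KO, which shares no array with Bach2 KO against WT. Itgb7 and Itgam rose and Itgad and Itgal fell, 4 of 9, where 26.1% of all genes or transcripts passed (2509 higher and 3531 lower). The median over the 9 genes was 0.33, beside -0.21 over all. Itgb7 rose by 6.20 ± 0.61 (73.3-fold, adjusted p = 1.79e-05), Itgam by 4.03 ± 0.41 (16.4-fold, adjusted p = 2.39e-05), while Itgal fell by 3.29 ± 0.32 (9.80-fold, adjusted p = 1.51e-05) and Itgad fell by 5.20 ± 0.63 (adjusted p = 8.52e-05, 1 of 3 DKO arrays well above background). Itgax passed as higher too with quantile normalization (0.67, adjusted p = 0.0253), Itga4 without DKO replicate 3 (0.78, adjusted p = 0.0312) and Itgb1 in a fit of these 2 genotypes alone (adjusted p = 0.0364). Of the 9 genes, 6 had the same sign with and without Bach1, and the 4 that passed in both went the same way. The 3 that passed only with Bach1 present were Itgax, Itgb1 and Itgb5. The share of all genes or transcripts that behaved alike in both comparisons is not given here, so these counts are not read as particular to integrins. For Itgb1 the difference without Bach1 was 0.94 ± 0.42 (adjusted p = 0.122) and for Itgb5 it was -0.45 ± 0.30 (adjusted p = 0.294).

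The difference between these effects was tested as the interaction of Bach1 and Bach2 loss. In limma's test 0 of 9 genes passed, where 0.675% of all genes or transcripts passed (24 higher and 132 lower). An unadjusted p under 0.05 was reached by 3 of them, as by 14.8% of all. These were Itgb7 at 3.78 ± 0.87 (adjusted p = 0.0881), Itgax at 1.05 ± 0.36 (adjusted p = 0.233) and Itgad, for which no size is given because its Bach2 KO level is only an upper limit. The median over the 9 genes was 0.47, beside 0.09 over all. For Itgb7 the interaction passed with the replicate block (adjusted p = 0.0349).

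**Figure D3:**
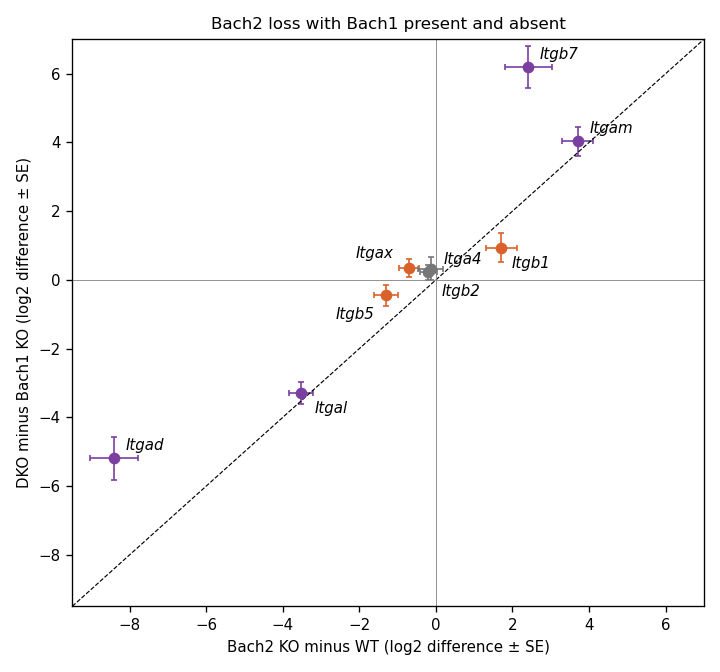
Log2 difference of each integrin gene without Bach2 in mice that have Bach1 (horizontal, Bach2 KO minus WT) and in mice that lack it (vertical, DKO minus Bach1 KO), with SE bars; purple passed in both, orange in one, grey in neither, and the dashed line marks equal differences. Itgam and Itgal lie near the line, at 3.70 and 4.03 and at -3.53 and -3.29, and Itgb7 lies above it, at 2.42 and 6.20. The horizontal Itgad value uses Bach2 KO signals not well above background, and for its vertical value 1 of 3 DKO arrays was well above background.

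For each integrin gene measured on at least 10 arrays, the pair of other named genes with the most similar profile was found among 11936 candidates, by the root mean square distance between log2 profiles over 12 arrays after each was centred on its own mean. Rassf5 (0.27) and Mbnl3 (0.33) came nearest to Itgal, and Rassf5 encodes RAPL, a protein that binds LFA-1 and activates it. Nearest to Itgam were Pdcd1lg2 (0.53), which encodes the inhibitory ligand PD-L2, and Alcam (0.54), a cell adhesion molecule. Clec10a (0.71), a macrophage lectin, and Ndrg1 (0.80) came nearest to Itgb7. The nearest to Itgax were Tcn2 (0.12) and Eif2s2 (0.16), to Itgb2 H2-T23 (0.09) and Gfer (0.11), and to Itgb5 Ciao3 (0.20) and Txnrd2 (0.22). Kctd5 (0.20) and Bms1 (0.22) were nearest to Itgb1, and Med19 (0.22) and Kpna6 (0.29) to Itga4. A small distance is easier to reach for genes that vary little, such as Itgb2, whose values span 0.86 over the 12 arrays, than for Itgb7, whose values span 7.91.

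The other genes of integrin biology were read from 4 lists. The array holds 16 of 18 other integrin subunit genes, and only 6 were bright enough to be tested, under a filter that genes low in WT could pass through the mutants. In Bach2 KO against WT 2 of the 6 rose and 0 fell (median 0.01), and the same held in DKO against WT (median 0.75). Over all genes or transcripts 37.1% and 27.2% passed in these comparisons, with medians of -0.30 and -0.28. Itgb3, which encodes the β chain of the vitronectin and fibrinogen receptors, read -4.70, -5.58 and -4.05 in WT, the second of these not well above background, and -4.48, -4.97 and -3.79 in Bach1 KO. It read 3.22, 2.78 and 2.95 in Bach2 KO and 2.50, 2.06 and 2.14 in DKO. All mice without Bach2 were above all mice with it, and Itgb3 rose by 7.76 ± 0.42 in Bach2 KO against WT (adjusted p = 2.96e-07), by 7.01 ± 0.42 in DKO against WT (adjusted p = 3.27e-07) and by 6.64 ± 0.42 in DKO against Bach1 KO (adjusted p = 5.24e-07). Itgav, the gene of its αv partner, rose by 5.19 ± 1.39 (adjusted p = 0.0129) and by 4.57 ± 1.39 (adjusted p = 0.0301) against WT, where 1 of 3 WT arrays was well above background. The count of other subunits that rose was 1 in either comparison without WT replicate 1 or without WT replicate 3, 1 in Bach2 KO against WT on slide 1 alone, and 1 in DKO against WT without DKO replicate 1 or without DKO replicate 2. With a filter on all 12 arrays 0 of these subunits passed, because neither Itgb3 nor Itgav was well above background on every array. Platelets also carry Itgb3, and 8 platelet and erythroid markers summed to 5.99 to 12.6 times the array's 75th percentile in WT, 1.53 to 5.71 in Bach1 KO, 14.3 to 32.2 in Bach2 KO and 28.0 to 42.8 in DKO. Among them Gp9 and Hbb-bt were not well above background on any Bach2 KO array, and their part in the Itgb3 result was not tested.

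Of 20 genes of integrin activation and adaptors, 18 were tested. In Bach2 KO against WT 3 rose and 7 fell (median -0.46), and in DKO against WT 4 rose and 5 fell (median -0.23). Those 9 became 4 without WT replicate 1 and 5 with quantile normalization. Beside these counts, 37.1% of all genes or transcripts passed in Bach2 KO against WT (median -0.30) and 27.2% in DKO against WT (median -0.28). Rassf5 fell by 3.20 ± 0.26 in Bach2 KO (adjusted p = 4.85e-06) and fell by 3.33 ± 0.26 in DKO (adjusted p = 2.32e-06), from 5.39, 5.95 and 5.38 in WT to 2.34, 2.85 and 1.94 in Bach2 KO and 2.42, 2.09 and 2.21 in DKO. Flna, which encodes filamin A, an actin crosslinker that binds β tails, fell by 1.29 ± 0.20 and 1.14 ± 0.20 (adjusted p = 0.000627 and 0.00143). Rasgrp3, which encodes an activator of Rap and Ras, and Skap1, an adaptor of the Rap1 pathway, were not well above background on any WT or Bach1 KO array. Rasgrp3 was at least 22.4-fold higher in Bach2 KO and at least 7.25-fold higher in DKO than in WT (adjusted p = 2.10e-05 and 0.000150). Skap1 was at least 6.67-fold and at least 8.45-fold higher (adjusted p = 0.000135 and 6.44e-05). In DKO against Bach1 KO 4 of the 18 rose and 4 fell, where 26.1% of all genes or transcripts passed.

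Of 21 genes of integrin signalling and focal adhesion, 20 were tested, and 2 rose and 11 fell in Bach2 KO against WT (median -0.99), 8 in all with no scaling. In DKO against WT 4 rose and 8 fell (median -0.41), and in DKO against Bach1 KO 4 rose and 6 fell. The shares of all genes or transcripts that passed were 37.1%, 27.2% and 26.1% in the same order. The all-gene medians against WT were -0.30 in Bach2 KO and -0.28 in DKO. Fgr, which encodes a Src family kinase that signals downstream of Itgb2 integrins in myeloid cells, fell by 1.51 ± 0.22 (adjusted p = 0.000392) in Bach2 KO against WT. Plcg2, which encodes a phospholipase that acts below such kinases, fell by 1.52 ± 0.20 in Bach2 KO (adjusted p = 0.000189) and by 1.35 ± 0.20 in DKO (adjusted p = 0.000424). Lyn and Ptk2b, 2 other tyrosine kinase genes, fell in DKO against WT by 1.79 ± 0.29 and 2.61 ± 0.44 (adjusted p = 0.000843 and 0.00103). Vcl, which encodes vinculin of focal adhesions, rose by 6.32 ± 1.04 in Bach2 KO against WT (adjusted p = 0.000857), with 2 of 3 WT arrays well above background. Zyx, which encodes zyxin, rose in DKO against Bach2 KO by 1.22 ± 0.30 (adjusted p = 0.0463, and 0.0524 with the replicate block).

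Of 22 genes for integrin ligands, 14 were tested, and 7 rose and 3 fell in Bach2 KO against WT (median 1.18). In DKO against WT 6 rose and 3 fell (median 0.73), as in DKO against Bach1 KO. Among all genes or transcripts 37.1%, 27.2% and 26.1% passed in these comparisons. Their medians against WT were -0.30 in Bach2 KO and -0.28 in DKO. Thbs1, which encodes the matrix protein thrombospondin 1, was not well above background in WT or Bach1 KO and was at least 340-fold higher in Bach2 KO (adjusted p = 2.11e-07) and at least 72.2-fold higher in DKO (adjusted p = 6.75e-07) than in WT. It fell by 2.23 ± 0.52 in DKO against Bach2 KO (adjusted p = 0.0400). F11r, the gene of the LFA-1 ligand JAM-A, fell by 2.30 ± 0.23 in Bach2 KO and by 3.06 ± 0.23 in DKO against WT (adjusted p = 2.18e-05 and 1.58e-06). Cdh1, the gene of E-cadherin, rose by 2.28 ± 0.27 and 2.20 ± 0.27 (adjusted p = 8.67e-05 and 9.30e-05), and Spp1, the gene of osteopontin, rose by 2.83 ± 0.36 in DKO against WT (adjusted p = 0.000124). Vcam1, the gene of a ligand of the Itga4 and Itgb1 pair, read -7.99, -4.94 and -8.05 in WT, where only the second array was well above background, and -2.26, -4.16 and -2.04 in Bach1 KO. It read -0.02, -0.64 and 0.34 in Bach2 KO and -1.98, -2.14 and -2.12 in DKO. Vcam1 rose by 6.88 ± 0.78 in Bach2 KO against WT (adjusted p = 6.93e-05), and its interaction of Bach1 and Bach2 loss was -6.14 ± 1.11 (adjusted p = 0.0304). In Bach1 KO against WT 0 genes of the 4 lists passed in limma's test.

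**Figure D4:**
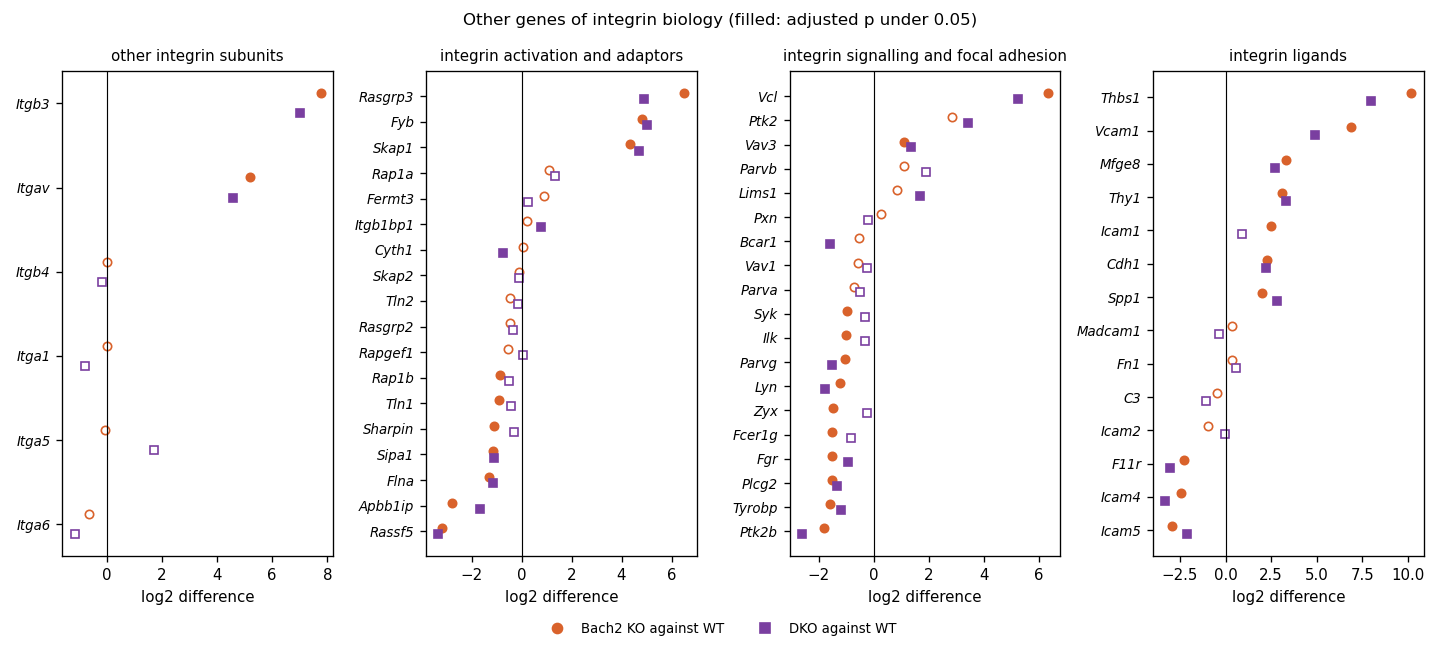
Log2 differences of tested genes of 4 lists (1 signalling gene is not drawn) in Bach2 KO against WT (orange circles) and DKO against WT (purple squares); filled points passed an adjusted p of 0.05, and each panel has its own horizontal scale. Itgb3 and Itgav lead the other subunits at 7.76 and 5.19 in Bach2 KO, and Rassf5 (-3.20) lies at the low end of the activation list.

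Markers of several cell types differed between mice with and without Bach2, but not all did. Neutrophil marker sums in DKO overlapped those in WT and Bach1 KO, and dendritic cell marker sums in DKO overlapped those in Bach1 KO. The marker counts stand beside 37.1% of all genes or transcripts that passed in Bach2 KO against WT and 27.2% in DKO against WT. The all-gene medians there were -0.30 and -0.28. In bulk RNA, fewer cells of a type and less RNA per cell cannot be told apart. The 12 alveolar macrophage markers summed to 1471 to 1931 times the array's 75th percentile in WT and 1074 to 1842 in Bach1 KO, and to 401 to 560 in Bach2 KO and 303 to 451 in DKO, and 10 of the 12 fell in Bach2 KO against WT. Of 12 monocyte and interstitial macrophage markers, 11 are on the array, and they summed to 29.7 to 55.8 in WT, 38.4 to 47.1 in Bach1 KO, 87.2 to 139 in Bach2 KO and 105 to 152 in DKO. In Bach2 KO against WT 6 of these 11 rose and 2 fell, and Adgre4 was well above background on none of the Bach2 KO arrays. These cells carry Itgam, and the part of the marker shifts in the Itgam, Itgal and Itgad results was not tested. Of 11 T cell markers on the array, which bear on Itgal, Itga4 and Itgb7, the sum was 1.40 to 2.80 in WT, 1.76 to 2.86 in Bach1 KO, 4.04 to 4.31 in Bach2 KO and 3.73 to 4.68 in DKO. On none of the 12 arrays were Cd247 and Themis well above background, and 4 of the 7 tested T cell markers rose in Bach2 KO. Dendritic cell markers, which bear on Itgax and Itgb7, summed to 52.4 to 73.0 in WT, 39.0 to 81.4 in Bach1 KO, 84.6 to 90.7 in Bach2 KO and 73.3 to 88.6 in DKO, with Xcr1 not well above background in WT, Bach1 KO or Bach2 KO. Of the 7 dendritic cell markers tested, 4 rose and 1 fell in Bach2 KO against WT (median 2.72), and 3 rose and 0 fell in DKO against WT (median 2.71). Neutrophils also carry Itgam, and their 11 markers on the array summed to 99.7 to 142 in WT, 90.8 to 141 in Bach1 KO, 52.1 to 69.0 in Bach2 KO and 78.5 to 117 in DKO. Of the 9 neutrophil markers tested 1 rose and 3 fell in Bach2 KO against WT, 1 rose and 2 fell in DKO against WT, and no array had Ngp well above background. The 6 eosinophil markers summed to 25.6 to 50.9 in WT, 20.2 to 30.8 in Bach1 KO, 0.997 to 3.49 in Bach2 KO and 0.313 to 0.365 in DKO. In each genotype only 1 of the 6 was well above background on all 3 arrays. Prg2, Epx and Alox15 were well above background on no WT or Bach1 KO array, and Epx on no array at all. The 1 eosinophil marker tested fell in Bach2 KO and in DKO against WT. The 8 natural killer cell markers summed to 0.670 to 1.09 in WT, 0.706 to 0.791 in Bach1 KO, 1.26 to 2.65 in Bach2 KO and 1.17 to 2.44 in DKO. Of the 4 natural killer cell markers tested 1 rose and 1 fell in Bach2 KO against WT and 2 rose and 1 fell in DKO against WT, and Ncr1 was not well above background in WT, Bach2 KO or DKO. B cell markers summed to 0.120 to 0.514 in WT and 0.247 to 0.725 in Bach1 KO. They summed to 0.579 to 0.832 in Bach2 KO and 0.716 to 1.01 in DKO. Mast cell and basophil markers summed to 0.138 to 0.199 in WT and 0.152 to 0.175 in Bach1 KO. They summed to 0.354 to 0.418 in Bach2 KO and 0.190 to 0.333 in DKO. In WT 0 B cell markers and 1 mast cell and basophil marker were well above background on all 3 arrays. Lung epithelium markers summed to 13.2 to 15.6 in WT and 9.61 to 11.9 in Bach1 KO. They summed to 20.6 to 23.3 in Bach2 KO and 19.7 to 24.0 in DKO. Of the 5 lung epithelium markers tested 1 rose and 2 fell in Bach2 KO against WT. The part of these lists in the integrin results was not tested.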

How the data were processed

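Single-colour Agilent arrays measured the RNA of alveolar macrophages, 12 arrays of 12 mice. Each scanner file gives spot intensities that were background-subtracted within the array by Feature Extraction, per the file headers (version 10.7.3.1, against 9.1 per the submitters' processing notes). A deposited value table has 20850 probes on a log2 scale, made by a method not given in the sources used here. Its probes have a median of 0 and its columns correlated with the scanner values at r of at least 0.999. Column medians ran from -0.25 to 0.25, direction and scale matched the scanner values, and it served as an alternative.

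From log2 of the processed signal the array's 75th percentile over non-control spots was subtracted. Spots marked as outliers, 136 to 733 on an array, were dropped, and spots of 1 probe averaged. Probes entered if all 3 arrays of any genotype called them well above background (30878 of 55681). Accessions took their gene names from RefSeq (GRCm38.p6) (26413 probes), and the brightest probe represented a gene, with at least 2 values per genotype. The 23124 genes or transcripts were fitted over 12 arrays, with 8 residual degrees of freedom, with limma 3.58.1 (lmFit, eBayes with trend) in R 4.3.3 with data.table (version 1.17.8), and adjusted by Benjamini-Hochberg over all of them. Intervals are 95% intervals of that fit. The method was tested on simulated data. The number of arrays limits the precision.

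The integrin genes and gene lists were chosen with earlier results of these data known. All 9 integrin genes are named in the text. From each related list up to 4 genes per comparison with the smallest adjusted p among those that passed are named, together with the 2 most similar genes per member, and some list members are counted but not reported by name. Where no array of a group called a gene well above background, its difference is a bound against the lowest signal well above background on each of those arrays. Same-numbered Bach2 KO and DKO arrays deviated together from their group means (r from 0.116 to 0.123 in 3 pairs, against -0.12 to 0.029 in the other 6), a pairing read from the data and not stated in the labels, so a blocked value stands in the text where it changes a call between them. Alternatives covered scaling, background correction, filter, probe choice, outlier spots, variance model, groups fitted, replicate block, slide and leaving out each array. Normexp on median signals (offset 50) and a fit without the WT and Bach1 KO replicates 3 were chosen after seeing the data.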

Additional observations from a re-analysis of the deposited data

Results flagged for a closer look

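For Itgax and Itgb7 the measured steps with Bach1 loss had opposite signs with and without Bach2. In each gene every Bach1 KO mouse lay below every WT mouse and every DKO mouse lay above every Bach2 KO mouse. None of these steps passed in limma's test. For Itgax the step from WT to Bach1 KO was -0.26 ± 0.26 (95% interval -0.82 to 0.30). The lowest WT and highest Bach1 KO values were 6.30 and 6.24 for Itgax and -1.79 and -1.87 for Itgb7. The test of whether the steps differ, limma's interaction over all 12 arrays, gave 1.05 ± 0.36 for Itgax (adjusted p = 0.233) and 3.78 ± 0.87 for Itgb7 (adjusted p = 0.0881), and neither passed 0.05. The DKO arrays had a slide of their own, so Bach1 loss without Bach2 cannot be told apart from that slide. Over the alternatives the Itgb7 interaction lay between 3.08 and 4.21, with adjusted p between 0.0349 and 0.204. The Itgax interaction lay between 0.51 (quantile normalization) and 1.20 (scaling to the array median), with 0.64 for no scaling, and it passed in none of them.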

How the results depend on the processing

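Of the 16 member differences that passed, run in 417 alternatives in all, 388 kept their direction and passed, 28 kept their direction and did not pass, and 1 reversed (Itgax in Bach2 KO against WT, 0.16 with quantile normalization). The Itgax difference accounts for 18 of the 28. Of 972 alternatives of the 38 differences that did not pass, 15 passed and 25 reversed, and the cause was not tested. With quantile normalization and no scaling the differences were 0.30 and 0.55 for Itga4 in Bach2 KO against WT (0.035 on slide 1 alone), 0.70 and 0.49 for Itgb2 in Bach2 KO against WT, 0.46 and 0.36 for Itgb2 in DKO against WT, and -0.24 and -0.13 for Itgb2 in DKO against Bach2 KO. The interaction of Itgb2 was -0.15 with quantile normalization, and those of Itgal and Itgam were -0.17 and -0.073 with no scaling. Itgax in DKO against WT was -0.068 with scaling to the array median, and Itgb1 in DKO against Bach2 KO was 0.37 for the mean of its probes. Leaving out 1 array gave -0.24 to 0.035 for Itga4 in Bach2 KO against WT, -0.91 to 0.031 for Itgam in Bach1 KO against WT, -0.15 to 0.22 for Itgax and -0.30 to 0.13 for Itgb2 in DKO against WT. In DKO against Bach2 KO it gave -0.37 to 0.13 for Itgal, -0.23 to 0.0098 for Itgam, -0.53 to 0.087 for Itgb1 and -0.10 to 0.33 for Itgb2, and for the interaction -0.022 to 0.48 for Itgal and -0.18 to 0.77 for Itgam. The count of members that passed in Bach2 KO against WT was 4 on slide 1 alone, which holds fewer arrays. In DKO against Bach2 KO it was 1 (Itgb7) with normexp on median signals, with the series matrix, with the 2 groups alone, with the replicate block and with WT replicate 3 and Bach1 KO replicate 3 both left out, and 0 to 1 when 1 array was left out (1 without WT replicate 3 or Bach1 KO replicate 2). For the interaction it was 1 with normexp (Itgad, whose Bach2 KO signals are not well above background) and 1 with the replicate block (Itgb7). With the replicate block 6 members passed in Bach2 KO against WT and 6 in DKO against WT; Itgax was lost in the first and Itgb5 gained in the second. Arrays of different genotypes that share a number correlated between -0.14 and 0.39 after group means were removed. Outside the pair Bach2 KO and DKO at most 1 of 3 same-numbered pairs of 2 genotypes was above 0.1. For WT and Bach1 KO the 3 same-numbered pairs ran from 0.040 to 0.385, against -0.21 to 0.14 in the other 6. A pairing outside Bach2 KO and DKO can therefore be neither shown nor excluded from these counts. With slide as a random block the estimated correlation was 0.03. Normexp on mean signals was not run, because the files used here hold no such column. The series matrix holds 6 of the 9 members. Signal over background limits Itgad, whose level in Bach2 KO is an upper limit and which was well above background on 1 of 3 DKO arrays.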
